A study of Mus musculus with 12 samples.

Results

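The 10 genes described here encode members of the BCL2 family whose transcripts lie outside the family's best known p53 targets, Bax, Bbc3 and Pmaip1. They are Bcl2, Bcl2l1, Bcl2l2 and Mcl1, which restrain apoptosis, Bak1 and Bok, which form pores, and Bid, Bad, Bmf and Bcl2l11, which hold only a BH3 domain. The genes were chosen by name, with earlier results of these data known. All 10 were found among the 24343 genes with a unique name in each library. All 10 also reached an FPKM (fragments counted per kilobase of gene length and adjusted for sequencing depth) of at least 0.5 in at least 3 libraries, as 11924 genes did.

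BCL2 family proteins decide whether the outer mitochondrial membrane stays closed. BAK1, BAX and BOK can open it and release cytochrome c, MCL1, BCL-XL (Bcl2l1), BCL-W (Bcl2l2) and BCL2 hold them in check, and BH3-only proteins bind the guardians, and some also the pore formers, to set the pores free. In neurons this balance governs developmental and injury-induced death, and mature neurons splice Bak1 transcripts differently from other cells. Much of the control lies after transcription, through rapid turnover of MCL1, cleavage of BID by caspase 8 and phosphorylation of BAD, so transcript levels are only part of the picture.

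RNA-seq was performed on 12 libraries of HT22 cells, an immortalised mouse hippocampal neuronal line, with 3 biological replicates in each of 4 groups. Cells received a negative control siRNA (siControl) or an siRNA against Ncoa4 (siNCOA4), the receptor that brings ferritin to autophagy, by Lipofectamine transfection. For each siRNA, a further group was also given the iron chelator deferoxamine (DFO) at 100 µM for 24 h (siControl+DFO and siNCOA4+DFO). All groups, controls included, were thus transfected cells of a single line. The comparisons address how Ncoa4 knockdown and DFO, alone and together, moved these transcripts. Ferritinophagy itself was not measured in these libraries.

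Ncoa4 checked the labels. Its FPKM was 6.46, 6.19 and 6.02 in siControl, 0.770, 0.952 and 0.891 in siNCOA4, 8.70, 8.31 and 7.52 in siControl+DFO, and 0.850, 1.29 and 1.57 in siNCOA4+DFO. The transcript was 6.53-fold lower in siNCOA4 than in siControl cells (adjusted p = 1.25e-05), and 6.35-fold lower in siNCOA4+DFO than in siControl+DFO cells (adjusted p = 2.83e-05). Of 10 neuronal markers, only Tubb3 and Dlg4 passed the filter on low values, and Rbfox3, Map2 and Snap25 were at or near 0, whereas all 4 mesenchymal markers passed. Summed mesenchymal FPKM ran from 2186 to 2419 in siControl, 1789 to 1863 in siNCOA4, 1531 to 1591 in siControl+DFO and 1351 to 1494 in siNCOA4+DFO cells. The sum of 4 astrocyte markers, 2 of which passed the filter, ran from 36.4 to 46.0 in siControl, 3.18 to 5.42 in siControl+DFO and 6.95 to 15.1 FPKM in siNCOA4+DFO cells, and that of 4 microglial markers, of which Tmem119 passed and P2ry12 was at 0, ran from 9.98 to 11.8, 0.985 to 1.68 and 0.457 to 2.01 FPKM. Relative depth, read from the step size of low FPKM, differed by 1.52 times between the deepest and the shallowest library, while small RNAs took 38.0 to 41.1% of summed FPKM in siControl and 48.1 to 52.0% in siNCOA4+DFO libraries. The part of these differences in the results was not tested, and in such bulk samples fewer cells with a transcript cannot be told apart from less of it per cell.

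The promoters of the 5 genes that moved most clearly are shown first, because these genes moved in the same comparison but in opposite directions. Each is the stretch of 250 bases before an annotated start, 5′ to 3′ on the gene's strand, from RefSeq on build GRCm38.p6, which corresponds to the mm10 build of the deposited data. Capitals mark GC boxes (GGGCGG) and hypoxia response cores (ACGTG or GCGTG), on either strand. Bad and Bmf have several annotated starts, and the outermost is shown.
Mcl1 promoter (chr3:95658471-95658720, plus strand): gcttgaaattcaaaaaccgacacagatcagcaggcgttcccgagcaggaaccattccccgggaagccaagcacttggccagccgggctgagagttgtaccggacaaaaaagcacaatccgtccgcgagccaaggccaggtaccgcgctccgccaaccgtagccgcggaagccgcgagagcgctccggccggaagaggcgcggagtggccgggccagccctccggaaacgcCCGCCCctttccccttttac
Bak1 promoter (chr17:27028628-27028877, minus strand): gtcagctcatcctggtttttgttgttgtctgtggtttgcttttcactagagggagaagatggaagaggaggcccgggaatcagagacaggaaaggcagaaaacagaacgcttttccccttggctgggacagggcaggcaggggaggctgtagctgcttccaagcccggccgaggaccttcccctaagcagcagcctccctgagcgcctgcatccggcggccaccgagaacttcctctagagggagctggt
Bok promoter (chr1:93685325-93685574, plus strand): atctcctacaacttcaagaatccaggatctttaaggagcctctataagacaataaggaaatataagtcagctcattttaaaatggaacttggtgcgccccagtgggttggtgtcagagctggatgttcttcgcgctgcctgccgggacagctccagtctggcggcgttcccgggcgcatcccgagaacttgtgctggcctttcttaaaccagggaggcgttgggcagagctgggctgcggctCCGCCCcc
Bad promoter (chr19:6941611-6941860, plus strand): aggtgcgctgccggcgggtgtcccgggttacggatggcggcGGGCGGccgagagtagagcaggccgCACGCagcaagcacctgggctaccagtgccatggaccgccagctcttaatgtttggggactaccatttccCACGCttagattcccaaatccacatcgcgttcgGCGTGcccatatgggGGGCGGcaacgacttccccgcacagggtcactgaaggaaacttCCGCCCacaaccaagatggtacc
Bmf promoter (chr2:118549687-118549936, minus strand): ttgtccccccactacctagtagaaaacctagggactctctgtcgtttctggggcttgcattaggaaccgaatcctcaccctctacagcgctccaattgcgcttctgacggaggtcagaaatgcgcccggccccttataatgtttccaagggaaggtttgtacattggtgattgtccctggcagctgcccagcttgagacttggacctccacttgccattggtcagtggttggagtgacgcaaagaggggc
Among 16 promoters of the 10 genes, 8 promoters of 7 genes held a GC box, against 32.7% of all 32851 promoters of that length. The Mcl1 and Bok promoters each held 1, the Bad promoter 3, and those of Bak1 and Bmf none. ACGTG was in none of the 16 (16.6% of all promoters), and GCGTG was in 4 promoters, of Bad, Bcl2l1 and Bcl2l11 (28.2% of all). The E-box CACGTG, which contains ACGTG, and the AP-1 motif TGANTCA were likewise in none of the 16 (6.02% and 6.75% of all), and the FOXO motif GTAAACA was in 1, of Bcl2l11 (3.17% of all). These letters were searched on both strands and only within these stretches, so they are a description of the sequence and not of binding.

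In untreated siControl cells the 10 transcripts spanned a wide range of levels. Mcl1, the short-lived guardian of BAK1, was the most abundant, at 63.1 ± 0.656 FPKM (SD, n = 3), above 90.8% of the genes tested. Bak1 followed at 45.4 ± 4.16, Bad at 37.7 ± 8.59 and Bcl2l1 at 26.2 ± 4.33 FPKM, and neighbours in that order overlapped. Bid at 11.8 ± 2.42, Bok at 11.3 ± 0.756 and Bcl2l2 at 10.7 ± 0.826 FPKM formed a middle tier whose neighbours also overlapped, ahead of Bcl2l11 at 8.02 ± 1.35. Bmf at 2.55 ± 0.301 and Bcl2 at 2.53 ± 1.05 FPKM were the least abundant, and their libraries overlapped. Bcl2, the founding member of the family, was thus above only 18.7% of the genes tested in these cells.

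**Figure D1:**
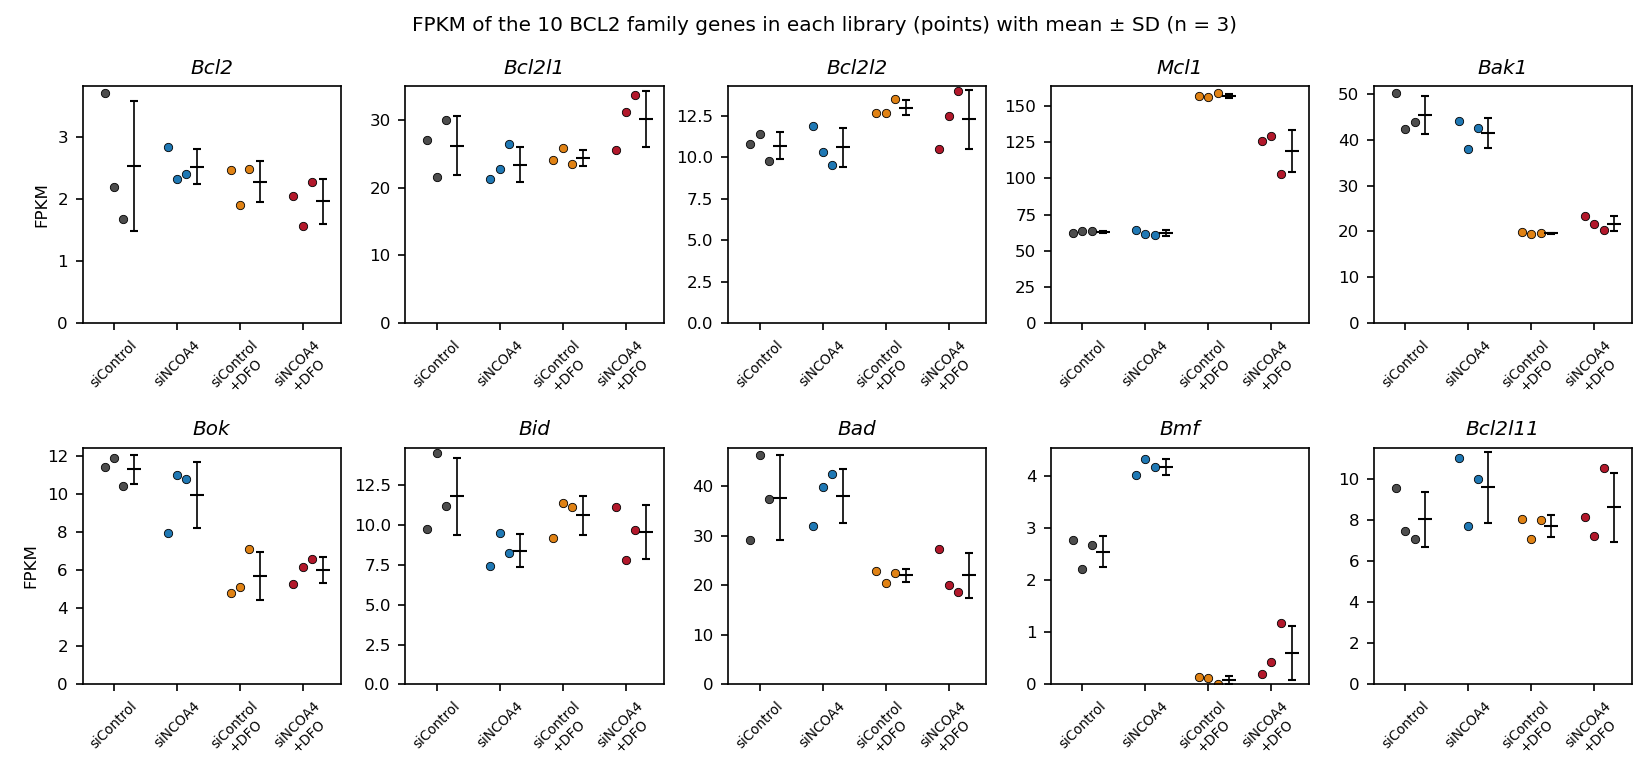
FPKM (y axis, from 0, with a scale for each gene) of the 10 genes in the 4 groups. Points are libraries in the order of replicates 1 to 3, and the bar to their right is the mean ± SD. The 3 siControl+DFO libraries lie at 156 to 159 for Mcl1 and at 19.5 to 19.8 for Bak1, apart from all libraries without DFO.

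DFO moved 5 of the 10 transcripts in siControl cells, as judged by limma at an adjusted p below 0.05. Mcl1 was higher, against a background of 27.7% of all genes tested that were higher, and Bak1, Bok, Bad and Bmf were lower, against 25.7% that were lower. The median log2 change of the 10 was -0.11, and that of all genes tested -0.01. With a fold change above 2 asked for as well, Mcl1, Bak1 and Bmf remained, against 18.8% of all genes in either direction. The calls in both directions together, 5 of 10, were near the background. Mcl1 encodes a guardian, and the 4 genes that fell encode pore formers or BH3-only proteins. However, 3 of the 4 guardians and 2 of the 4 BH3-only genes were not called. Outside the 10, the pore former Bax and the BH3-only gene Bbc3 were higher with DFO.

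The effect of DFO was also measured in siNCOA4 cells, with no library in common. There, Mcl1 and Bcl2l1 were higher (2 of 10, with 23.1% of all genes higher) and Bak1, Bok, Bad and Bmf were lower (4 of 10, with 19.6% of all genes lower). All 5 genes called in siControl cells were called in the same direction in siNCOA4 cells, which is 100% of the former and 83.3% of the latter calls. The same share over all genes was not worked out, so this agreement cannot be called particular to the 10. DFO calls were common, at 6365 of 11924 genes tested in siControl and 5095 in siNCOA4 cells. The median log2 change of the 10 was -0.25 in siNCOA4 cells.

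**Figure D2:**
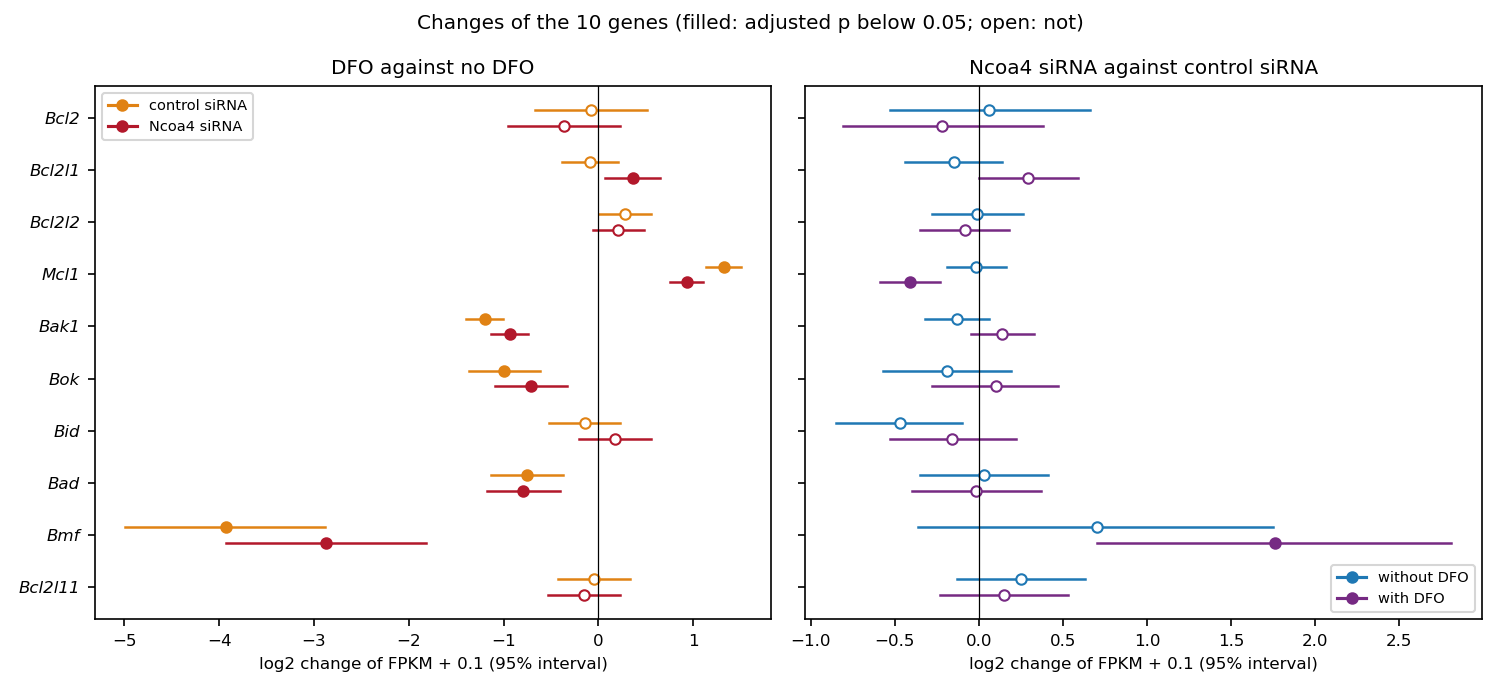
Log2 change of FPKM + 0.1 (x axis) for each gene (y axis), with 95% intervals. The left panel shows DFO against no DFO, with Mcl1 at 1.32 and 0.93 and Bmf at -3.93 and -2.87, and the right panel Ncoa4 siRNA against control siRNA on its own x scale, where only Mcl1 and Bmf with DFO are filled, that is, past the adjusted p of 0.05.

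Among the guardians, Mcl1 was higher in every library with DFO. Its FPKM was 62.3, 63.5 and 63.4 in siControl, 64.5, 61.4 and 61.0 in siNCOA4, 157, 156 and 159 in siControl+DFO, and 126, 129 and 103 in siNCOA4+DFO cells. All 6 libraries with DFO were above all 6 without it, and the siControl+DFO libraries were above those of siNCOA4+DFO. Mcl1 rose 2.49-fold with DFO in siControl cells (log2 change 1.32, SE 0.08, adjusted p = 8.66e-08) and 1.90-fold in siNCOA4 cells (0.93, SE 0.08, adjusted p = 3.39e-06). The gene lies at chr3:95658788-95663176, and none of its 75-base exonic stretches was shared with another gene. Mcl1 also has a shorter spliced form that promotes death, which values per gene do not separate.

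Bcl2l1 encodes BCL-XL, the chief guardian of mature neurons. Its FPKM was 27.1, 21.5 and 30.0 in siControl, 21.3, 22.7 and 26.4 in siNCOA4, 24.1, 25.8 and 23.5 in siControl+DFO, and 25.6, 31.2 and 33.7 in siNCOA4+DFO cells. Only the last group reached beyond 30.0, and its lowest library overlapped the others. DFO changed Bcl2l1 by -0.09 on the log2 scale in siControl cells (95% interval -0.38 to 0.21, adjusted p = 0.611) and by 0.36 in siNCOA4 cells (0.07 to 0.65, adjusted p = 0.0482). The latter call was lost in 12 of the alternative fits, 8 of which left out 1 library. Those libraries were siControl replicate 1, siNCOA4 replicates 1 and 2, siControl+DFO replicates 1 to 3, and siNCOA4+DFO replicates 2 and 3, with the log2 change between 0.27 and 0.36 and the adjusted p between 0.0555 and 0.154 without each of them.

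Bcl2l2 and Bcl2, the other guardians, passed the test in no comparison. Bcl2l2 (BCL-W) had FPKM of 10.8, 11.4 and 9.77 in siControl and 12.7, 12.7 and 13.5 in siControl+DFO cells, so these groups did not overlap. Its log2 change with DFO was 0.28 (95% interval 0.01 to 0.55, adjusted p = 0.0708), and it passed the threshold in a fit of these groups alone (adjusted p = 0.0489) and without siNCOA4+DFO replicate 1 (0.0471) or 3 (0.0493). In siNCOA4 cells Bcl2l2 was at 11.9, 10.3 and 9.57 FPKM, and at 10.5, 12.5 and 14 with DFO, where the groups overlapped. Of the exonic bases of Bcl2l2, 13.3% are shared with Gm20521 on the same strand. Of those of Bcl2, 6.09% lie opposite D630008O14Rik. Bcl2 ranged from 1.56 to 3.71 FPKM over all 12 libraries, and its log2 change with DFO was -0.08 (95% interval -0.67 to 0.51) in siControl cells and -0.36 (-0.95 to 0.23) in siNCOA4 cells.

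Both pore formers of the set were lower with DFO. Bak1 encodes BAK1, which resides in the outer membrane and is held by MCL1 and BCL-XL. Its FPKM was 50.2, 42.3 and 43.8 in siControl, 44.0, 37.9 and 42.6 in siNCOA4, 19.8, 19.5 and 19.6 in siControl+DFO, and 23.3, 21.6 and 20.2 in siNCOA4+DFO cells. The highest library with DFO lay well below the lowest without it. Bak1 was 2.30-fold lower with DFO in siControl cells (log2 change -1.20, SE 0.09, adjusted p = 3.94e-07) and 1.91-fold lower in siNCOA4 cells (-0.93, SE 0.09, adjusted p = 6.29e-06).

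Bok encodes a pore former that is less bound by the guardians and is kept low by degradation. Its FPKM was 11.4, 11.9 and 10.4 in siControl, 7.97, 11 and 10.8 in siNCOA4, 4.80, 5.10 and 7.13 in siControl+DFO, and 5.27, 6.15 and 6.60 in siNCOA4+DFO cells. Every library with DFO was below every library without it. The log2 change was -1.0 (SE 0.17, adjusted p = 4.02e-04) in siControl and -0.71 (SE 0.17, adjusted p = 0.00543) in siNCOA4 cells. Of the exonic bases of Bak1 (chr17:27019810-27029009), 25.5% lie opposite Ggnbp1 on the other strand, whose FPKM was 0.341 ± 0.0661 in siControl and 0.608 ± 0.182 in siControl+DFO cells, whereas Bok (chr1:93685660-93695764) overlapped no other gene. Whether the counting used strand is not given in the sources used here.

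The BH3-only genes split into Bad and Bmf, which were lower with DFO, and Bid and Bcl2l11, which passed the test in no comparison. Bad encodes a sensitiser that frees the pore formers from BCL-XL and is silenced by AKT phosphorylation and 14-3-3 binding. Its FPKM was 29.2, 46.4 and 37.5 in siControl, 31.9, 39.9 and 42.4 in siNCOA4, 22.9, 20.5 and 22.5 in siControl+DFO, and 27.3, 20.1 and 18.6 in siNCOA4+DFO cells. The groups with and without DFO did not overlap, although the siControl libraries were widely spread. The log2 change was -0.75 (SE 0.18, adjusted p = 0.00329) in siControl and -0.80 (SE 0.18, adjusted p = 0.00298) in siNCOA4 cells. Of Bad's exonic bases (chr19:6941861-6951899), 20.5% lie opposite Gpr137, which was at 5.71 ± 1.27 FPKM in siControl and 5.62 ± 0.252 in siControl+DFO cells.

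Bmf had the largest change of the 10. BMF is a BH3-only protein that is tethered to dynein light chain and freed upon loss of attachment and other stress. Its FPKM was 2.77, 2.21 and 2.67 in siControl, 4.01, 4.33 and 4.18 in siNCOA4, 0.137, 0.117 and 0 in siControl+DFO, and 0.197, 0.424 and 1.18 in siNCOA4+DFO cells. The values correspond to 38, 38 and 43 fragments in siControl, 72, 75 and 81 in siNCOA4, 2, 2 and 0 in siControl+DFO, and 3, 7 and 15 in siNCOA4+DFO libraries. The transcript was therefore close to the floor of the measurement in siControl+DFO cells, and the value listed at 0 in replicate 3, taken as 0 fragments, may also be a failed estimate. Allowing for depth, Bmf fragments were 30.3 times as frequent in siControl as in siControl+DFO libraries (95% interval 11.5 to 113, counting error only) and 7.42 times as frequent in siNCOA4 as in siNCOA4+DFO libraries (4.90 to 11.7). On the scale of log2(FPKM + 0.1) the changes were -3.93 (SE 0.48, adjusted p = 2.72e-05) and -2.87 (SE 0.48, adjusted p = 4.83e-04). The first ran from -5.48 to -1.71 as the pseudocount went from 0.01 to 1, and it was -3.54 without siControl+DFO replicate 3. Bmf (chr2:118528757-118549687) overlapped no other gene.

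Bid and Bcl2l11 overlapped between the groups with and without DFO. BID, which links death receptors to mitochondria, had transcript FPKM of 9.73, 14.5 and 11.2 in siControl, 7.45, 9.48 and 8.25 in siNCOA4, 9.19, 11.4 and 11.1 in siControl+DFO, and 11.1, 7.81 and 9.71 in siNCOA4+DFO cells. The siNCOA4 libraries of Bid were its only group that lay apart from siControl. Its log2 change with DFO was -0.14 (95% interval -0.52 to 0.23, adjusted p = 0.508) in siControl and 0.18 (-0.20 to 0.55, adjusted p = 0.436) in siNCOA4 cells. Bcl2l11 encodes BIM, which binds all guardians and is a known driver of neuronal death. Its FPKM was 9.56, 7.44 and 7.06 in siControl, 11, 7.69 and 10.0 in siNCOA4, 8.04, 7.08 and 7.99 in siControl+DFO, and 8.13, 7.24 and 10.5 in siNCOA4+DFO cells. All 4 groups of Bcl2l11 overlapped, and its log2 change with DFO was -0.05 (95% interval -0.43 to 0.33) in siControl and -0.15 (-0.53 to 0.23) in siNCOA4 cells.

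Ncoa4 knockdown without DFO moved none of the 10 transcripts past the limma threshold, against a background of 4.52% of all genes higher and 7.21% lower, and 1 of the 10, Bid, had an unadjusted p below 0.05, as 26.2% of all genes tested did. All siNCOA4 libraries of Bid were below all siControl libraries (log2 change -0.47, SE 0.17, unadjusted p = 0.0170, adjusted p = 0.0989). Of the exonic bases of Bid, 17.7% lie opposite those of Bcl2l13, which was at 12.1 ± 0.488 FPKM in siControl and 9.60 ± 0.906 in siNCOA4 cells. The siNCOA4 libraries of Bmf lay above all siControl libraries (log2 change 0.70, SE 0.48, adjusted p = 0.397), with 1.65 times as many fragments after allowing for depth (95% interval 1.32 to 2.08, counting error only). This difference passed the threshold in a fit of these groups alone (adjusted p = 0.0386). The narrowest interval was that of Mcl1, whose log2 change was -0.02 (95% interval -0.19 to 0.16).

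In cells with both treatments, 1 of the 10 transcripts was higher than in siControl cells and 4 were lower, against 25.4% and 23.4% of all genes tested. This comparison shares its control libraries with the DFO comparison, and the genes called were again Mcl1 (log2 change 0.91, SE 0.08, adjusted p = 2.64e-06), Bak1 (-1.06, SE 0.09, adjusted p = 1.55e-06), Bok (-0.90, SE 0.17, adjusted p = 9.40e-04), Bad (-0.77, SE 0.18, adjusted p = 0.00315) and Bmf (-2.18, SE 0.48, adjusted p = 0.00265). Bak1 and Bmf also had a fold change above 2, against 15.2% of all genes. Bmf fragments were 4.50 times as frequent in siControl as in siNCOA4+DFO libraries (95% interval 2.91 to 7.23, counting error only), and the log2 change was -1.19 with a pseudocount of 1. The median log2 change of the 10 was -0.30, and that of all genes tested 0.01.

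Within DFO-treated cells, knockdown of Ncoa4 changed 2 of the 10 transcripts. Bmf was higher (1 of 10, with 6.22% of all genes higher) and Mcl1 was lower (1 of 10, with 10.2% of all genes lower). Mcl1 was 1.33-fold lower in siNCOA4+DFO than in siControl+DFO cells (log2 change -0.41, SE 0.08, adjusted p = 0.00590). The log2 change was -0.30 without siNCOA4+DFO replicate 3, the library of that group with the lowest value, and -0.27 with quantile normalization. In a limma fit of these groups alone the adjusted p was 0.0396. Bmf was higher by 1.76 on the log2 scale (SE 0.48, adjusted p = 0.0288), and its fragments were 6.72 times as frequent (95% interval 2.32 to 26.6, counting error only). That call rests on few fragments. It was lost without siControl+DFO replicate 3 (log2 change 1.36, adjusted p = 0.0904), without siNCOA4+DFO replicate 2 (1.83, 0.0532) and without siNCOA4+DFO replicate 3 (1.19, 0.0927), and with a pseudocount of 1 (0.52, 0.0857).

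Whether the effect of Ncoa4 knockdown differed with and without DFO was tested as the interaction. None of the 10 passed the limma threshold, against 0.671% of all genes with a higher and 1.43% with a lower effect under DFO, and 2 of the 10, Mcl1 and Bcl2l1, had an unadjusted p below 0.05, close to the 18.2% of all genes tested that did. The difference between the knockdown effects was -0.39 on the log2 scale for Mcl1 (SE 0.11, unadjusted p = 0.00514, adjusted p = 0.0967) and 0.45 for Bcl2l1 (SE 0.19, unadjusted p = 0.0370, adjusted p = 0.238). For Bmf it was 1.06 with a 95% interval of -0.43 to 2.55.

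FPKM was also summed within each class of the 10 genes, which leaves out Bax and Bbc3. The 4 guardians together were at 102 ± 3.43 FPKM in siControl and 98.9 ± 1.90 in siNCOA4, but at 197 ± 1.27 in siControl+DFO and 164 ± 10.7 in siNCOA4+DFO cells (SD, n = 3). The 2 pore formers fell from 56.7 ± 4.2 to 25.3 ± 1.24 FPKM with DFO in siControl cells, and were at 51.5 ± 2.32 in siNCOA4 and 27.7 ± 0.915 in siNCOA4+DFO cells. The 4 BH3-only genes summed to 60.0 ± 9.71, 60.2 ± 5.29, 40.4 ± 1.22 and 40.8 ± 5.62 FPKM in siControl, siNCOA4, siControl+DFO and siNCOA4+DFO cells. For all 3 sums, no library with DFO overlapped a library without it, although 3 libraries against 3 cannot reach a two-sided exact permutation p below 0.1. The lower sums of the pore formers and BH3-only genes were not seen once Bax and Bbc3 were counted. With Bax added, the pore formers stood at 104 ± 3.28 FPKM in siControl, 121 ± 5.30 in siControl+DFO and 108 ± 15.1 in siNCOA4+DFO cells, so the siControl+DFO libraries, at 116 to 126, were above those of siControl, at 100 to 107. With Bbc3 added, the BH3-only genes summed to 63.3 ± 9.50, 77.7 ± 5.38 and 60.5 ± 9.13 FPKM in these groups, whose libraries overlapped between siControl and each group with DFO.

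Mcl1 made up most of the guardian transcripts in every group. Its share was 61.6 ± 2.45% in siControl, 63.0 ± 1.43% in siNCOA4, 79.9 ± 0.337% in siControl+DFO and 72.7 ± 4.90% in siNCOA4+DFO cells, while that of Bcl2l1 went from 25.5 ± 3.43% in siControl to 12.4 ± 0.636% in siControl+DFO cells. The ratio of Mcl1 to Bak1, a guardian and its partner, rose from 1.40 ± 0.136 to 8.02 ± 0.0925 with DFO in siControl cells, and was 1.51 ± 0.102 in siNCOA4 and 5.49 ± 0.443 in siNCOA4+DFO cells. This ratio restates the separate calls of Mcl1 and Bak1 and is no further evidence. It also leaves out the pore former Bax, at 46.9 ± 5.39 FPKM in siControl and 96.0 ± 6.48 in siControl+DFO cells. The ratio of Mcl1 to Bcl2l11, whose own level did not pass the test, was 8.01 ± 1.31 in siControl and 20.5 ± 1.41 in siControl+DFO cells. Shares and ratios are of FPKM, so they compare transcripts per length and say nothing of protein.

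**Figure D3:**
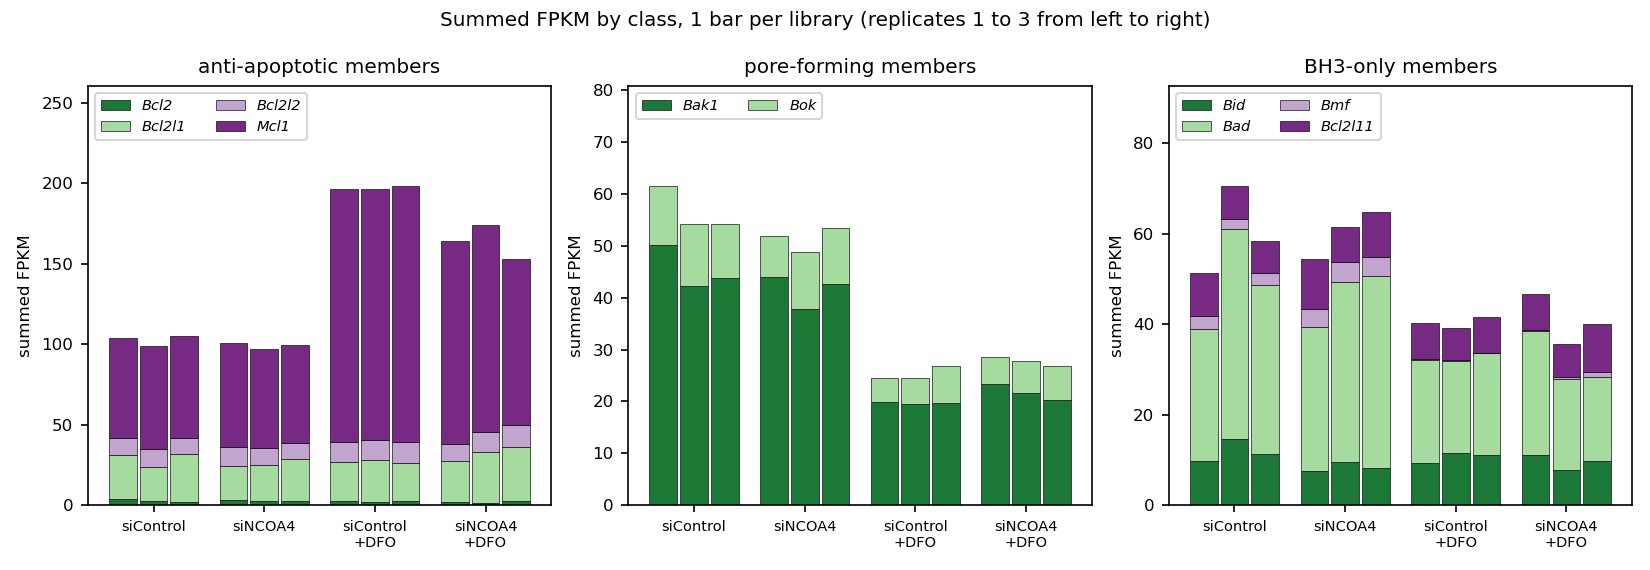
Summed FPKM (y axis, from 0, with its own scale in each panel) of the guardians, the pore formers and the BH3-only genes, stacked by gene, with 1 bar for each of the 12 libraries. The guardian bars stand at 98.5 to 105 in siControl and 196 to 199 in siControl+DFO cells and are mostly Mcl1, while the pore-forming bars go from 54.2 to 61.6 down to 24.6 to 26.7.

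The rest of the death pathway was read from lists of genes. Of 16 further BCL2 family and BH3 genes, 8 passed the filter. With DFO in siControl cells, Bax, Bbc3, Bcl2l15, Bnip3, Bnip3l and Becn1 were higher and Bcl2l12 was lower, with a median log2 change of 1.16 over the 8, while 27.7% of all genes tested were higher and 25.7% lower. In siNCOA4+DFO against siControl cells, 5 were higher and 2, Bcl2l12 and Bcl2l13, lower (median 0.89), against 25.4% and 23.4% of all genes. Bbc3, which encodes the p53-induced BH3-only protein PUMA, was at 3.24 ± 0.226 FPKM in siControl, 37.3 ± 6.57 in siControl+DFO and 19.8 ± 5.82 in siNCOA4+DFO cells (log2 changes 3.47 and 2.52, SE 0.24, adjusted p = 2.03e-07 and 3.75e-06). Bnip3, a hypoxia-inducible mitophagy receptor, was at 42.5 ± 2.66, 162 ± 20.3 and 159 ± 12.9 FPKM in these groups. Bcl2l15 was listed at 0 to 0.437 FPKM in siControl, 1.76 to 2.14 in siControl+DFO and 0.925 to 1.48 in siNCOA4+DFO libraries. The pore former Bax was at 46.9 ± 5.39 FPKM in siControl and 96.0 ± 6.48 in siControl+DFO cells, a move opposite to that of Bak1 and Bok. Pmaip1 was listed at 0 in all 12 libraries.

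Downstream of the membrane, Apaf1, the scaffold of the apoptosome, rose from 9.0 ± 1.10 FPKM in siControl to 44.9 ± 2.08 in siControl+DFO and 44.6 ± 4.52 in siNCOA4+DFO cells (log2 change 2.30 in the last against the first, SE 0.11, adjusted p = 1.93e-08). Endog, which encodes a mitochondrial nuclease, had a log2 change of -1.31 with an SE of 1.22 in the same comparison (adjusted p = 0.400).

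Of 23 known regulators of BCL2 family proteins, 22 passed the filter. In siNCOA4+DFO against siControl cells 3 were higher and 8 lower (median log2 change -0.11), against 25.4% and 23.4% of all genes. With DFO in siControl cells 4 were higher and 9 lower (median -0.08), against 27.7% and 25.7% of all genes, so the calls in both directions together were near the background in both comparisons. Pim1, a kinase that phosphorylates BAD, was at 1.91 ± 0.729 FPKM in siControl, 20.3 ± 3.22 in siControl+DFO and 6.21 ± 2.53 in siNCOA4+DFO cells, and its log2 change was 1.61 (SE 0.32, adjusted p = 0.00125) in the last against the first. Fbxw7, whose product directs MCL1 to degradation, rose from 12 ± 0.716 FPKM in siControl to 21.0 ± 1.000 in siControl+DFO and 29.2 ± 5.95 with both treatments (1.26 for both treatments, SE 0.13, adjusted p = 8.38e-06). Akt1, which encodes a kinase that inactivates BAD, fell from 74.6 ± 1.70 FPKM in siControl to 40.1 ± 1.63 in siControl+DFO and 39.2 ± 4.19 with both treatments (-0.93 for both treatments, SE 0.09, adjusted p = 3.63e-06).

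All 10 transcription factors known to act on BCL2 family genes were tested, and in siNCOA4+DFO against siControl cells Foxo3, Ddit3, Jun, E2f1 and Rela were higher and Foxo4, Nfkb1 and Stat3 lower (median log2 change 0.29), with 25.4% of all genes higher and 23.4% lower. With DFO in siControl cells 5 were higher and 1 lower (median 0.24), with 27.7% of all genes higher and 25.7% lower. Jun, a subunit of AP-1, was at 28.4 ± 3.97 FPKM in siControl, 675 ± 69.5 in siControl+DFO and 334 ± 89.9 in siNCOA4+DFO cells. Ddit3, which encodes the stress factor CHOP, was at 41.5 ± 0.982, 345 ± 15 and 277 ± 51.1 FPKM in these groups. Foxo3, a factor known to drive Bcl2l11, was at 9.29 ± 1.55, 49.5 ± 3.39 and 30.3 ± 4.90 FPKM, while Bcl2l11 itself passed the test in no comparison.

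**Figure D4:**
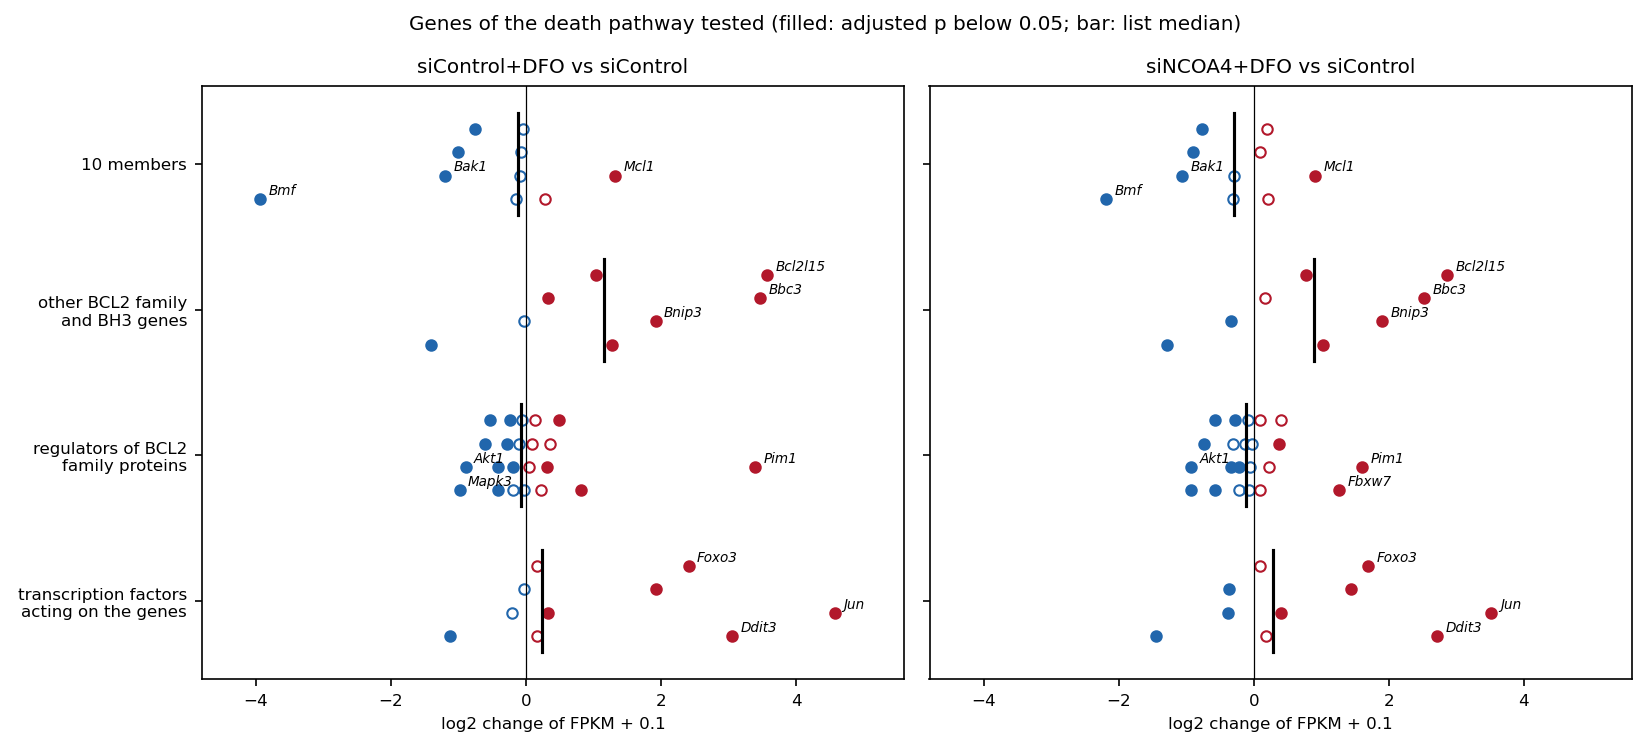
Log2 change of FPKM + 0.1 (x axis) of every tested gene of 4 lists (y axis) with DFO (left panel) and with both treatments (right panel), each against siControl. The 3 genes with the largest changes per list are named, and vertical bars are list medians, at -0.11 and -0.30 for the 10 genes and at 1.16 and 0.89 for the other BCL2 family and BH3 genes.

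For the 3 genes with the largest changes in siNCOA4+DFO cells, the most alike patterns were sought among 11923 genes, by the root-mean-square difference over the 12 libraries of log2(FPKM + 0.1) from its siControl mean. Those nearest to Bak1 were Dap at 0.07, Ptms at 0.09 and Calm3 at 0.10. Those nearest to Mcl1 were Pip5k1a at 0.08 and Utp20 and Phf10, both at 0.09. For the low and more variable Bmf the nearest genes were farther off, Ly6c1 at 0.62, Mfap4 at 0.73 and Tle2 at 0.77. Ly6c1 had log2 changes of -3.59 with DFO and -2.47 with both treatments, beside -3.93 and -2.18 for Bmf, but -0.31 with Ncoa4 knockdown alone, beside 0.70 for Bmf.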

How the data were processed

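Transcripts were profiled in 12 libraries by stranded total RNA-seq with 75-bp pairs. The authors deposited FPKM values, 1 table per library with 24347 entries, of which 4 sharing a name were left out. The submitters' processing notes name Trimmomatic 0.33, FastQC, HISAT2 2.1.0, featureCounts, edgeR and mm10, while the annotation, the strand setting and the step from counts to FPKM are not given in the sources used here. FPKM carries no depth, so relative depth was taken from the commonest ratio between libraries among genes below 1.0 FPKM, and whole fragments (up to 200, within 0.2 of a whole number) were found for Bmf, Bcl2l2 and Bid.

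Groups followed the sample labels. Changes were computed as log2(FPKM + 0.1), without further scaling, for the 11924 genes that reached 0.5 FPKM in 3 or more libraries, and 6929 genes were at 0 in all libraries. In R 4.3.3, limma 3.58.1 fitted 1 mean per group to the 12 libraries and moderated variances along a mean-variance trend (residual df 8, prior df 4.07). Benjamini-Hochberg adjustment ran over all genes tested in each comparison, and a gene was called at an adjusted p below 0.05. The study also asked for a fold change above 2, which was an alternative here. Fold changes are on the FPKM + 0.1 scale and understate those of low genes. The limma fit was tested on simulated data, for the comparison of siControl+DFO with siControl. The edgeR test of the study could not be repeated on FPKM.

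Gene overlaps were taken from GENCODE vM21 and promoters from RefSeq. Named genes were the 10 members in every comparison, Ncoa4, the 3 most changed genes of each list and the 3 most alike patterns. The list of steps after membrane opening is an exception and is not reported in full here. Bax, Ggnbp1, Gpr137, Bcl2l13, Gm20521 and D630008O14Rik, the genes listed by direction and the promoter motifs were added after values were seen. The members and lists were chosen with earlier results of these data known. Alternatives covered the pseudocount, filter, scaling, moderation, groups fitted, replicate block and each library left out. Python 3.11.15, numpy 2.4.6, pandas 2.3.3, scipy 1.17.1 and matplotlib 3.10.9 were used.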

Additional observations from a re-analysis of the deposited data

Results flagged for a closer look

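A gene was flagged if all 3 libraries given DFO, or given Ncoa4 siRNA, changed side of the reference mean between settings. The share of all genes that do so was not worked out, so a flag alone carries no weight. For Bcl2l1, the libraries with DFO lay on opposite sides of the mean without DFO in cells with control siRNA and with Ncoa4 siRNA. All 3 siControl+DFO libraries were below the siControl mean of 26.2 FPKM, and all 3 siNCOA4+DFO libraries were above the siNCOA4 mean of 23.4 FPKM. The log2 change with DFO was -0.09 (95% interval -0.38 to 0.21, adjusted p = 0.611) in siControl cells and 0.36 (0.07 to 0.65, adjusted p = 0.0482) in siNCOA4 cells. The former groups overlapped, and their log2 change lay between -0.22 and 0.02 with each library left out. The difference between the effects was 0.45 on the log2 scale (SE 0.19), and it did not pass the test of the interaction by limma (adjusted p = 0.238).

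For Bak1, the libraries with Ncoa4 siRNA lay on opposite sides of the control siRNA mean without and with DFO. All 3 siNCOA4 libraries were below the siControl mean of 45.4 FPKM, and all 3 siNCOA4+DFO libraries were above the siControl+DFO mean of 19.6 FPKM. Neither knockdown effect passed the limma test, at a log2 change of -0.13 without DFO (95% interval -0.32 to 0.06, adjusted p = 0.390) and 0.14 with DFO (-0.05 to 0.33, adjusted p = 0.300). The difference between the effects was 0.27 on the log2 scale (SE 0.13, adjusted p of the interaction = 0.282), and did not pass the test either.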

How the results depend on the processing

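Of 1250 log2 changes of the 10 genes under alternatives, 1191 kept their direction and side of the threshold, 19 calls were lost, 4 were gained and 36 changes, all without a call, turned sign. The lost calls were those of Bcl2l1 in siNCOA4+DFO against siNCOA4 cells and of Bmf in siNCOA4+DFO against siControl+DFO cells, and the cause was not tested. Under quantile normalization, the siNCOA4 against siControl change was -0.04 for Bcl2, 0.01 for Bcl2l2 and 0.03 for Mcl1, and the siNCOA4+DFO against siControl+DFO change was 0.07 for Bad. The Bmf interaction was -0.03 with a pseudocount of 1. With each library left out in turn, changes that turned sign ranged as follows. For siNCOA4 against siControl they lay between -0.18 and 0.37 for Bcl2, -0.10 and 0.06 for Bcl2l2, and -0.14 and 0.19 for Bad. For siControl+DFO against siControl they lay between -0.32 and 0.23 for Bcl2, -0.22 and 0.02 for Bcl2l1, -0.27 and 0.01 for Bid, and -0.13 and 0.08 for Bcl2l11. For siNCOA4+DFO against siControl they lay between -0.54 and 0.01 for Bcl2 and -0.05 and 0.23 for Bcl2l11. For siNCOA4+DFO against siControl+DFO they lay between -0.18 and 0.03 for Bcl2l2, -0.01 and 0.27 for Bok, -0.18 and 0.09 for Bad, and -0.00 and 0.26 for Bcl2l11. For the interaction they lay between -0.17 and 0.04 for Bcl2l2, -0.21 and 0.12 for Bad, and -0.25 and 0.01 for Bcl2l11.

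The count of the 10 genes called became 1 for siNCOA4 against siControl when these groups were fitted alone. It became 3 for DFO, 2 for both treatments and 1 for siNCOA4+DFO against siNCOA4 with a fold change above 2 asked for. For siNCOA4+DFO against siControl+DFO it became 1 with a pseudocount of 1, without a filter, with quantile normalization, with these groups alone and with a fold change above 2, and it lay between 1 and 2 with each library left out. Over all genes, a fold change above 2 gave 212 calls for siNCOA4, 2244 for DFO, 1809 for both treatments, 249 for siNCOA4+DFO against siControl+DFO and 1362 against siNCOA4. Fitted alone, the groups siNCOA4+DFO and siControl+DFO gave 1204 calls. The interaction gave 165 calls with quantile normalization and 164 without a trend. With each library left out, calls over all genes lay between 724 and 1652 for siNCOA4, 1201 and 2100 for siNCOA4+DFO against siControl+DFO, and 76 and 292 for the interaction.

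Replicate numbers are shared between groups, but the labels do not say whether same-numbered libraries were prepared together. Each gene's group mean was first subtracted from log2(FPKM + 0.1). The remainders of same-numbered libraries correlated between -0.127 and 0.116 in 18 pairs, 2 of them above 0.1. In 5 of the 18 the library correlated best with its own number in the other group. With the replicate block, 0, 5, 5, 2, 6 and 0 of the 10 genes were called in the 6 comparisons, as without it, and the calls over all genes were 1181, 6241, 5714, 1741, 4955 and 171. Depth limits Bmf, with 0 to 15 fragments in the libraries with DFO.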
